A study of Caenorhabditis elegans with 60 samples.

Results

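The genes on the X chromosome were taken as all annotated *C. elegans* genes placed on X alone, apart from 84 X genes in named families (32 *linc*-, 27 *col*-, 8 *nas*-, 6 *dpy*-, 5 *vit*-, 4 *his*- and 2 *rpl*- genes). They numbered 5677 of the 31106 genes counted, and they were set against 24850 autosomal genes outside the same families. The X set was poorer in protein-coding genes than the autosomes (2615 genes, 46.1% against 67.2%) and richer in non-coding RNA genes (2506 genes, 44.1% against 20.8%). The 276 tRNA genes on X made up 43.5% of all tRNA genes. X genes were 13.3% of protein-coding genes and held 14.3% of the exonic bases of protein-coding genes, which is the level a measurement would take if it were spread evenly over coding sequence.

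Small RNAs were sequenced from immunoprecipitates (IPs) of the Argonaute proteins CSR-1 and WAGO-1 and from the matching inputs, and mRNA was sequenced from *csr-1a* mutants and wild-type animals, all grown at 20 °C. CSR-1A, the long isoform, carried 2xHA in 3 strains collected at the L4 stage (48 h post hatching), when hermaphrodites make sperm. These were *csr-1a(cmp165[2xHA::csr-1a])* (CSR-1A, 3 IPs and 2 inputs), a strain with the *cmp237[2xHA::csr-1a]* allele and the mutations *alg-3(tm1155)* and *alg-4(ok1041)*, which lacks the spermatogenesis Argonautes ALG-3 and ALG-4 (CSR-1A *alg-3/4*, 3 and 3), and a strain in which the *cmp165* tag was joined by *cmp208[15xAG]*, which exchanges arginine-glycine motifs for alanine-glycine (CSR-1A[15xAG], 3 and 3). CSR-1B, the short isoform, was precipitated through 2xFLAG by the allele *cmp167[2xFLAG::csr-1]* in animals that also carry *csr-1a(cmp135)* and so lack CSR-1A, and both isoforms together (CSR-1A+B) from *csr-1b(cmp166[2xFLAG::csr-1])*. Both strains were collected at L4 and as adults (68 h), with 2 IPs and 2 inputs each. WAGO-1 came from *wago-1(cmp92[GFP::3xFLAG::wago-1])* animals, which also carry the mCherry-tagged *mut-16* allele *cmp41*, at L4 (2 and 2), and untagged wild-type L4 animals precipitated with HA or FLAG antibody served as controls. mRNA was measured in L4 *csr-1a(cmp135)*, *csr-1a(cmp143)* and wild-type animals (3 libraries each). The *cmp135* allele removes the start codon region of *csr-1a*, and *cmp143* removes promoter sequence as well. Every library came from whole animals pooled in large numbers, so a change in the share of a tissue and a change within its cells cannot be told apart.

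In *C. elegans* hermaphrodites carry a pair of X chromosomes and males a lone X. The X is condensed and largely silent in germ cells through most of meiosis and becomes active late in oogenesis, and genes needed for sperm and for early germ cells lie mainly on autosomes. The small RNAs that CSR-1 and WAGO-1 carry are 22G-RNAs, which RNA-dependent RNA polymerases copy in antisense from target transcripts, starting opposite a C so that the small RNA begins with G. CSR-1 22G-RNAs mark genes expressed in the germline, whereas WAGO-1 22G-RNAs accompany silencing of transposons, pseudogenes and a group of coding genes.

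Several results below turn on sequence that an X gene shares with another gene, so a pair of stretches of 150 bases is shown for each of 2 cases. *Y73B3A.1* (chrX:43302-43451, minus strand) resembles *set-26*, a gene for a SET domain protein (chrIV:16647312-16647461, minus strand), and *fkh-4* (chrX:13428622-13428771, minus strand) resembles its neighbour *fkh-3* (chrX:13423207-13423356, minus strand), both forkhead transcription factor genes. The stretches are coding exon sequence on the sense strand in the RefSeq WBcel235 assembly, and capitals mark the 8 bases at which the members of a pair differ. Each window is the one of this length whose number of differences lay nearest to 8, and all bases in lower case are the same in both genes of a pair.
Y73B3A.1: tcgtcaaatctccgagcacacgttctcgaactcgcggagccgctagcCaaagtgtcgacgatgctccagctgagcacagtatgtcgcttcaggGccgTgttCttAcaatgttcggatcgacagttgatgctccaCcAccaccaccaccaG
set-26: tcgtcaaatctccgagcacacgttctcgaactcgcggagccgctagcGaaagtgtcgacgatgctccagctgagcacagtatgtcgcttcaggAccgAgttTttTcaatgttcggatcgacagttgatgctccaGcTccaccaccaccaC
fkh-4: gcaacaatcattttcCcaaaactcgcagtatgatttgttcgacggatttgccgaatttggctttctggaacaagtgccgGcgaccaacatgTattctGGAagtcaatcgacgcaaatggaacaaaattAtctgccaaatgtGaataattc
fkh-3: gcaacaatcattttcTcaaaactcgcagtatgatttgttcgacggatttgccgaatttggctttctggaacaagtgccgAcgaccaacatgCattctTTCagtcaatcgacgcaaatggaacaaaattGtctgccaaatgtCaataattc

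In the next 4 sequences each C, a possible start opposite a 22G-RNA, is in capitals. The first 90 bases of the longest coding exon are given for 4 X genes with a large fold change in an IP below. They are *ifc-2*, an intestinal intermediate filament gene (chrX:646928-647017, minus strand, 26 C), *phf-34*, a PHD finger gene (chrX:9898870-9898959, minus strand, 27 C), *ceh-63*, a homeobox gene (chrX:3672454-3672543, minus strand, 24 C), and *dot-1.2*, a relative of the histone H3 methyltransferase DOT1 (chrX:11868497-11868586, minus strand, 28 C). C made up a median of 20.9% of the exonic bases of X protein-coding genes, against 20.0% for autosomal ones, and X exonic lengths were longer (median 1233 against 1109 bases).
ifc-2: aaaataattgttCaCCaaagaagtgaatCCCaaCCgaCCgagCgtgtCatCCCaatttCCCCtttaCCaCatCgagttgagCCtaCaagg
phf-34: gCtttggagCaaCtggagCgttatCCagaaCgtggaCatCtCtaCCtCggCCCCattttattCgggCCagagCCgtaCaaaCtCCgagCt
ceh-63: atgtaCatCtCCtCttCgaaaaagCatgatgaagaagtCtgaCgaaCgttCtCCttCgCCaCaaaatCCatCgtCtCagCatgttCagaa
dot-1.2: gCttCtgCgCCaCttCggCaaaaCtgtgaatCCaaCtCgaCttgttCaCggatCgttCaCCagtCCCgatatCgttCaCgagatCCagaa

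The small RNA libraries held 570862 to 17342341 counts on genes, the lowest being replicate 1 of the CSR-1B L4 IP, in which 1 count was worth 1.30 reads per 1000000 mapped reads (RPM). The mRNA libraries held 16729691 to 21093818 counts, and mRNA levels are given as FPKM, counts scaled by exonic length and by the library's counts on genes. *csr-1* mRNA, which both isoforms share, was at 15.0 to 19 FPKM in *csr-1a(cmp135)* and 12.3 to 15.7 FPKM in *csr-1a(cmp143)*, against 36.7 to 39.4 FPKM in wild-type animals. The replicates are numbered in the labels without a statement on separate cultures. The paper calls the replicates of mRNA and of wild-type total small RNA biological, but does not say so of the IPs and their inputs. The p-values measure the spread between these libraries only, which for IPs and inputs may be technical. CSR-1A IP replicate 2 stood apart from the other CSR-1A IPs, as given below.

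To ask how much of each library fell on X, the counts on X genes were summed and divided by the counts on all genes outside rRNA and miRNA genes. Far fewer counts fell on X in the IPs of CSR-1B, and of both isoforms together, than in their inputs. The share was 2.72% and 2.23% in the CSR-1B L4 IPs, against 8.77% and 8.89% in the inputs, and 3.76% and 3.8% in the CSR-1A+B L4 IPs, against 10.1% and 9.53%. In adults it was 3.21% and 3.30% in the CSR-1B IPs, against 9.18% and 8.55% in the inputs, and 4.37% and 4.38% in the CSR-1A+B IPs, against 9.08% and 8.89%. No IP overlapped an input in these 4 comparisons.

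With the named families left out of X, WAGO-1 ran the other way, with 11.2% and 11.4% of IP counts on X, against 7.01% and 7.86% of input counts. The CSR-1A strains lay between. The CSR-1A *alg-3/4* IPs held 7.06%, 6.97% and 6.58%, against 9.36%, 9.12% and 8.74% in the inputs, and the CSR-1A[15xAG] IPs held 7.07%, 7.19% and 6.95%, against 11.3%, 11.6% and 9.84%. These groups did not overlap, but tRNA genes took 8.67% to 12.3% of the CSR-1A[15xAG] input counts and 0.519% to 0.712% of the IP counts. Without tRNA genes the X share was 6.75% to 6.92% in the CSR-1A[15xAG] IPs, against 7.99% to 9.35% in the inputs. For CSR-1A itself the IPs, at 5.32%, 7.42% and 5.88%, overlapped the inputs, at 7.35% and 6.94%, because replicate 2 lay above both inputs. The HA control IPs were above their inputs, at 7.81%, 8.54% and 8.0%, against 6.14% and 7.04%. The FLAG control IPs, at 7.17%, 8.09% and 7.12%, overlapped their inputs, at 6.30%, 6.79% and 7.14%. tRNA genes averaged 2.47% of the FLAG IP counts, against 1.18% of the input counts, and over protein-coding genes alone the mean X share was 6.60% in the FLAG IPs, against 6.72% in the inputs. The 2 libraries of total small RNA from wild-type L4 animals held 5.6% and 5.54% on X.

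**Figure D1:**
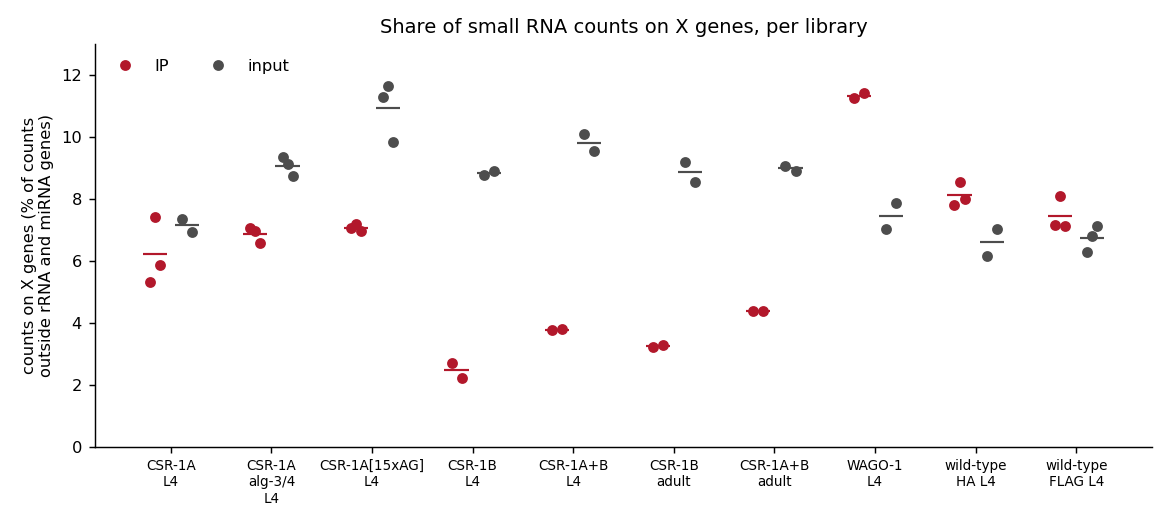
Counts on X genes as a percentage of the counts on all genes outside rRNA and miRNA genes, for each IP library (red) and input library (grey), with the mean of each group as a bar. CSR-1B and CSR-1A+B IPs lie between 2.23% and 4.38%, below all their inputs, and the WAGO-1 IPs lie at 11.2% and 11.4%, above theirs. The named families are left out of the X counts and kept in the total.

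Gene by gene, the median enrichment of X genes lay below that of every autosome in each CSR-1 IP. Each IP was compared with its input by edgeR's quasi-likelihood test over all genes that passed a filter on low counts, and a gene was called a target when its small RNAs were at least 2-fold higher in the IP with an adjusted p of at most 0.05, at 10 RPM or more in the IP, and not called in the control IP of the same antibody. Between 1401 and 1898 of the 5677 X genes passed the filter in an IP comparison (24.7% to 33.4%), against 42.1% to 48.8% of autosomal genes, so the counts below describe the X genes with measurable small RNAs. In the CSR-1B L4 IP 1468 of 1564 tested X genes (93.9%) were lower in the IP, against 45.6% of autosomal genes and 51.8% of all genes tested. Their median log2 fold change was -3.08, against -0.59 for autosomal genes. The fit scales libraries so that most genes balance, and the log2 ratio of the RPM values printed here lies above the fitted value by a median of 1.80 in the CSR-1B L4 comparison, 0.94 in CSR-1A+B at L4, 0.25 and 0.35 in CSR-1B and CSR-1A+B adults, 0.52 in CSR-1A, 1.34 in *alg-3/4* and 1.23 in CSR-1A[15xAG], and below it by 0.16 in WAGO-1. Scaled by library size alone, 1249 X genes were lower in the CSR-1B L4 IP and the median of all genes moved by 1.08.

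Only 10 X genes were CSR-1B targets at L4, 0.639% of those tested, against 31.3% of autosomal genes and 27.1% of all genes. CSR-1A+B at L4 had 26 X targets (1.69% of 1541, against 34.8% of autosomal and 30.4% of all genes), with a median log2 fold change of -1.41 on X and 0.29 on the autosomes. Among the chromosomes X had the lowest median in all 7 CSR-1 comparisons, with V next at -1.98 for CSR-1B at L4, and 22.7% of tested V genes were CSR-1B L4 targets. The difference between X and autosomes was alike in replicates. On the RPM scale the X median lay 2.06 and 2.11 below the autosomal median in the 2 CSR-1B L4 IPs and 1.49 and 1.46 below it in the 2 CSR-1A+B L4 IPs (log2, each IP against the mean input). Without replicate 1 of the CSR-1B L4 IP, the shallow library, 20 X genes were targets.

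**Figure D2:**
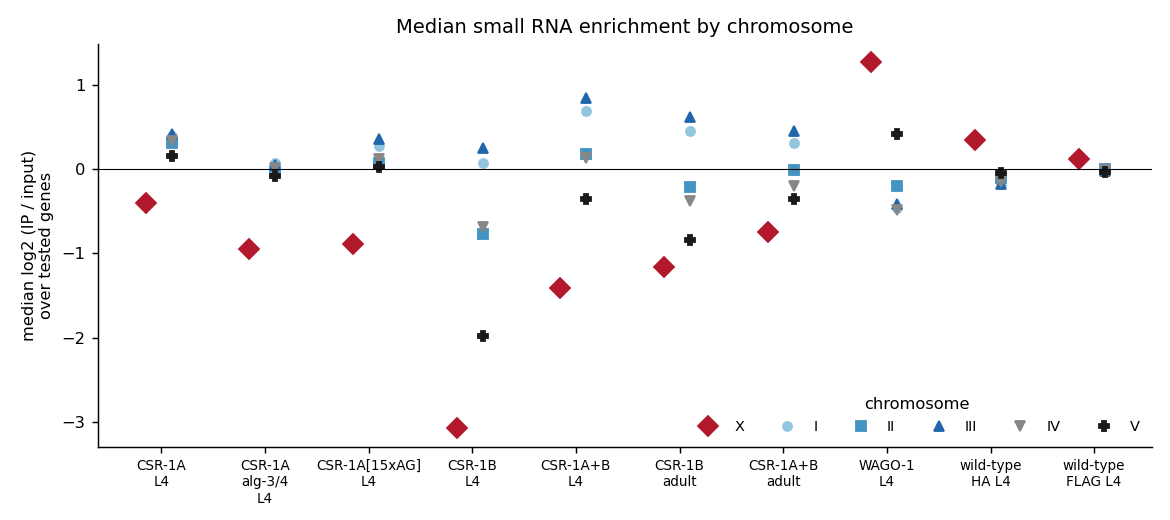
Median log2 fold change of IP over input across the tested genes of each chromosome (y axis) for 10 IP comparisons (x axis), with X as red diamonds left of the autosomes. X has the lowest median in the 7 CSR-1 comparisons, down to -3.08 for CSR-1B at L4, and the highest in WAGO-1 (1.27) and in the controls (0.35 and 0.12).

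**Figure D3:**
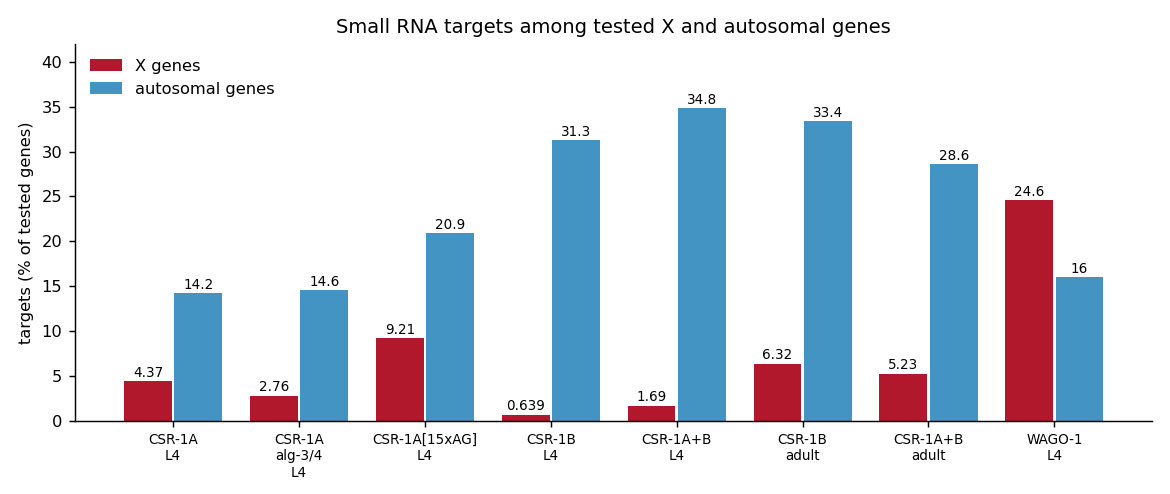
Targets as a percentage of the tested genes on X (red) and on the autosomes (blue) for the 8 tagged IPs. The X bar is below the autosomal bar in the 7 CSR-1 IPs (0.639% against 31.3% for CSR-1B at L4) and above it for WAGO-1 (24.6% against 16%).

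The 10 X genes that were CSR-1B targets at L4 were mostly genes with a close copy elsewhere. In 9 of them more than 10% of the exonic stretches of 22 bases also occurred at another place in the genome, and in 7 of those the other place was autosomal. The same was true of 7.35% of the autosomal CSR-1B L4 targets and of 35.6% of the X genes tested. *Y73B3A.1* had 656 and 665 RPM in the CSR-1B L4 IPs, against 28.9 and 31 RPM in the inputs (log2 fold change 2.58 ± 0.16, SE, edgeR's quasi-likelihood test, adjusted p = 6.1e-10), and 58.0% of its stretches lay elsewhere, 49.3% in *set-26*. *set-26*, on chromosome IV, was itself at 1619 and 1219.6 RPM, against 50.0 and 51.7 RPM (log2 2.91). *chkr-1*, named for its likeness to the meiotic kinase gene *chk-2*, had 408 and 477 RPM in the IPs, against 14.6 and 15.6 RPM (2.99 ± 0.17), with 40.5% of its stretches in *chk-2*, whose own log2 fold change was 3.35.

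Another 5 of the 10 were annotated as pseudogenes, and each shared sequence with an autosomal CSR-1B target. WBGene00011608, at 948 and 802 RPM in the CSR-1B L4 IPs, against 51.1 and 49.3 RPM, held 78.4% of its stretches in common with the germ granule helicase gene *glh-4* (log2 2.23 for the pseudogene and 2.64 for *glh-4*). WBGene00022218 matched *C16A11.10* over 79.9% of its stretches (1.83 and 2.61), WBGene00023191 matched *F55F10.1* over 70.9% (1.58 and 2.14), WBGene00022222 matched *ppgn-1* over 44.6% (1.51 and 2.07), and WBGene00008048 matched *npl-4.1* over 40.5% (1.10 and 2.26). In all 7 of these pairs, the autosomal gene had the larger log2 fold change and was a CSR-1B L4 target.

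The remaining 3 had no autosomal copy. *F23A7.8*, a gene of 227 bases (chrX:16213373-16213599), had the highest signal, at 1624 and 2289.8 RPM in the CSR-1B L4 IPs, against 36.3 and 43.7 RPM in the inputs (3.73 ± 0.20). It shared 57.3% of its stretches with its neighbour *F23A7.4*, which stood at 418 and 439.6 RPM, against 36.4 and 42 RPM (1.57). *C49F5.11*, an annotated non-coding RNA, had no repeated stretch and stood at 51.9 and 45.6 RPM, against 4.70 and 5.98 RPM (1.27). Reads were placed with the default settings of the aligner, under which a read that fits several places equally well is given to a place among them, and the part of this in the counts of the 9 genes was not tested. With all genes above 10% left out, 1 of 1006 X genes was a CSR-1B L4 target (0.0994%, against 36.2% of autosomal genes), and the medians were -3.13 on X and -0.12 on the autosomes. The X genes with repeated stretches among the targets numbered 15 of 26 for CSR-1A+B at L4 and 37 of 120 for CSR-1B in adults, but only 18 of 150 for CSR-1A[15xAG] and 69 of 423 for WAGO-1.

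In adults CSR-1B carried small RNAs for more X genes. There were 120 X targets (6.32% of 1898 tested, against 33.4% of autosomal and 29.3% of all genes), and all 10 of the L4 targets were among them. CSR-1A+B had 96 X targets in adults (5.23% of 1834, against 28.6% of autosomal and 24.9% of all genes). The median log2 fold change on X was -1.16 with CSR-1B and -0.75 with CSR-1A+B, against -0.12 and 0.02 on the autosomes. With the genes that have repeated stretches left out, there were 83 adult CSR-1B targets on X (6.45%).

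*phf-34* was at 95.2 and 103 RPM in the adult CSR-1B IPs, against 7.0 and 6.04 RPM in the inputs (log2 3.65 ± 0.14). *eat-17*, a Rab GTPase-activating protein gene needed for feeding, was at 88.6 and 89.2 RPM, against 6.30 and 6.30 RPM (3.56 ± 0.13), and at L4 it was at 10.4 and 2.47 RPM in the CSR-1B IPs, against 1.73 and 1.64 RPM (-0.90 ± 0.49, not called). *fkh-4*, the forkhead gene shown above, had 17.5 and 17 RPM, against 1.06 and 1.18 RPM (3.68 ± 0.22). It shares 63.5% of its stretches with *fkh-3*, so its reads cannot be told apart from those of *fkh-3* over these stretches. *F23A7.8* led again, at 855 and 968 RPM, against 46.7 and 41.1 RPM (4.11 ± 0.12).

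The change between stages was tested as an interaction of IP over input with stage. The CSR-1B enrichment of 587 X genes was at least 2-fold higher in adults than at L4 and that of 29 was lower, among 2018 tested (29.1% and 1.44%), against 12.1% and 5.94% of autosomal genes and 14.4% and 5.36% of all genes (edgeR's quasi-likelihood test, adjusted p at most 0.05). The median difference was 1.16 on X and 0.10 on the autosomes. Among X protein-coding genes 514 were higher and 3 lower of 1378. The count that were higher was 357 without replicate 1 of the adult CSR-1B IP. The count that were lower was less stable, at 56 and 19 without replicate 1 and 2 of the L4 IP, 0 and 19 without replicate 1 and 2 of the adult IP, and 7 and 15 without replicate 1 and 2 of the adult input. Scaled by library size alone, which moved the median of all genes by -0.79, 406 X genes were higher and 163 lower. For *phf-34* the difference between stages was 3.73. These libraries also differed in the small RNAs of marker genes. The summed level of 9 oocyte and germline markers was 689 to 701 RPM in adult CSR-1B inputs, against 157 to 172 RPM in L4 inputs. That of 4 intestine markers (*ges-1*, *vit-2*, *vit-5* and *elt-2*) was 724 to 877 RPM, against 20.7 to 39.3 RPM, and such a sum can follow a single member. No marker was at 0, and the part of these differences in the X values was not tested.

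The X genes best known from the germline and the early embryo showed the shift in single genes. Of the 8 members on X among genes named for oocytes, germ granules and embryos, 7 were tested, and in the CSR-1B L4 IP 6 of 7 were lower and none was a target, near the shares of 93.9% and 0.639% over all tested X genes, whereas 51 of 72 tested autosomal members were targets. In adults 3 of 7 were CSR-1B targets, against 6.32% of tested X genes and 62 of 72 autosomal members. All 7 had a higher CSR-1B enrichment than at L4, against 29.1% of tested X genes and 6 of 73 autosomal members. The 3 adult targets were *meg-1*, *meg-2* and *meg-3*, which encode disordered proteins of the germ granules. *meg-3* was at 43.1 and 30.5 RPM in the adult IPs, against 10.6 and 11.5 RPM in the inputs (1.48 ± 0.18), while at L4 it was at 3.89 and 2.26 RPM in the IPs, against 6.60 and 6.63 RPM (-3.34 ± 0.34). The difference between stages was 4.13 ± 0.48 (edgeR's quasi-likelihood test, adjusted p = 2.6e-05). *meg-1* was at 33.9 and 29.3 RPM in the adult IPs, against 4.39 and 6.88 RPM, and *meg-2* was at 17.8 and 17.4 RPM, against 3.32 and 2.35 RPM. At L4 both had at most 1.72 RPM in any CSR-1B library.

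*meg-4*, a close relative of *meg-3*, differed from it in adults, at 23.9 and 27 RPM in the CSR-1B IPs, against 23.2 and 19.5 RPM in the inputs (-0.02 ± 0.14). *puf-9*, a Pumilio family RNA-binding protein gene, was lower in the IPs at both stages, at 15.1 and 16.1 RPM in adults, against 28.9 and 30.8 RPM (-1.2 ± 0.13).

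The 7 X genes of sex determination and X-chromosome counting were low at L4 as well. The pathway measures the number of X chromosomes through X-linked signal elements such as *sex-1*, *fox-1* and *ceh-39*, which repress the male switch gene *xol-1*, and *sdc-1* and *sdc-2* act downstream in hermaphrodite fate and dosage compensation. In the CSR-1B L4 IP all 5 that were tested were lower, near the 93.9% of all tested X genes, and none was a target, against 0.639% of X genes and 8 of 13 autosomal members. By the test between stages all 7 had a higher CSR-1B enrichment in adults than at L4, against 29.1% of tested X genes and 3 of 14 autosomal members. None was a CSR-1B target in adults, against 6.32% of tested X genes and 5 of 14 autosomal members. *sdc-2* was at 31.5 and 27 RPM in adult CSR-1B IPs, against 15.8 and 17 RPM in the inputs (0.58 ± 0.14), and at 2.60 and 2.90 RPM in the L4 IPs, against 10.5 and 10.1 RPM (-3.73 ± 0.30). *sex-1* and *fox-1* had few small RNAs, at 7.17 and 6.62 RPM and at 6.41 and 5.66 RPM in adult CSR-1B IPs, against 1.49 and 1.34 RPM and 1.41 and 0.756 RPM. Both were below the 10 RPM that a target needed. The fitted differences of such genes rest on few reads of the shallow L4 IP.

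**Figure D4:**
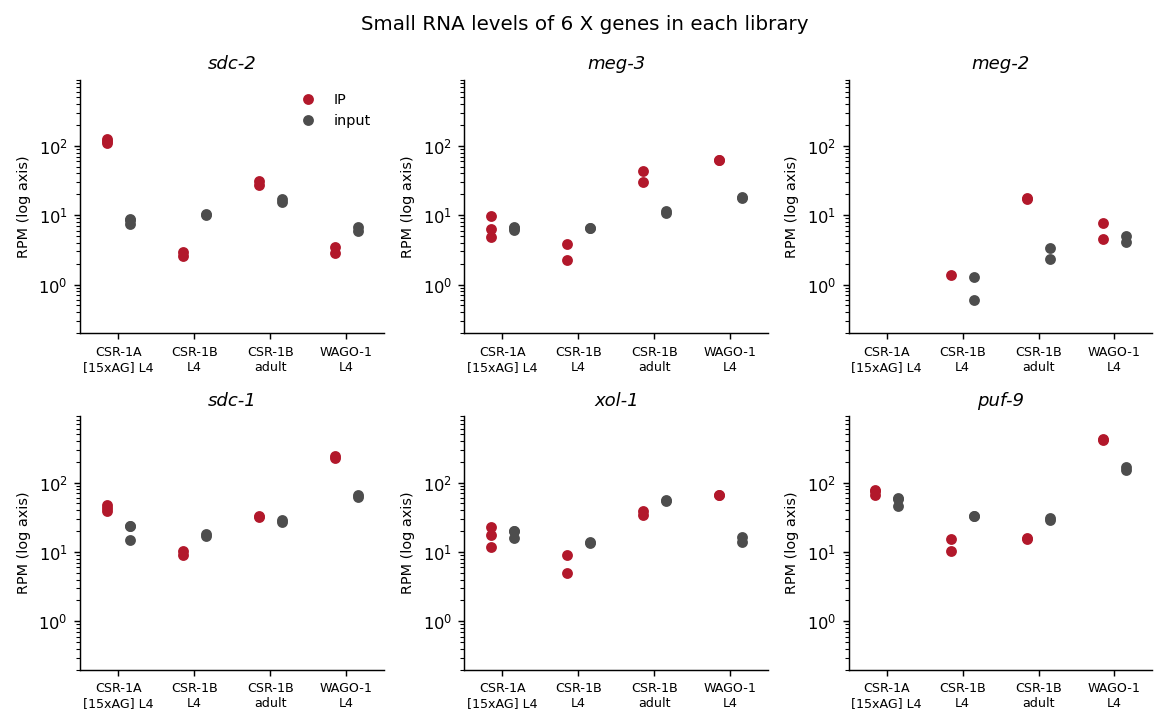
RPM on a log axis for 6 X genes in each IP library (red) and input library (grey) of 4 comparisons. *meg-2* was not tested for CSR-1A[15xAG] and its L4 CSR-1B IP replicate 1 was at 0, so neither is drawn. *sdc-2* stands out in the CSR-1A[15xAG] IPs (112 to 126 RPM, against 7.42 to 8.97 RPM), *meg-3* and *meg-2* rise above the inputs in adult CSR-1B IPs, and *sdc-1*, *xol-1*, *meg-3* and *puf-9* are highest over input in the WAGO-1 IPs.

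CSR-1A had more X targets than CSR-1B at L4, although fewer genes were targets in all. These counts come from separate fits, and the difference between CSR-1A and CSR-1B enrichment was not tested. Isoform, strain, tag and antibody (HA or FLAG) and counting version (1.6.5 for CSR-1A, 1.5.1 for CSR-1B) cannot be told apart in them. Oocyte and germline markers were also higher in the CSR-1A inputs than in the CSR-1B L4 inputs, and their part was not tested. There were 71 X targets of CSR-1A (4.37% of 1625 tested, against 14.2% of autosomal and 13.1% of all genes), 39 of CSR-1A *alg-3/4* (2.76% of 1411, against 14.6% and 13%) and 150 of CSR-1A[15xAG] (9.21% of 1629, against 20.9% and 19.5%). The median log2 fold changes on X were -0.40, -0.95 and -0.89, against 0.33, 0.02 and 0.18 on the autosomes. Of the 71 CSR-1A targets on X, 58 were also CSR-1A[15xAG] targets (81.7% of 71 and 38.7% of 150), 25 were *alg-3/4* targets (35.2% of 71 and 64.1% of 39), 1 was a CSR-1B L4 target (1.41% of 71) and 2 were WAGO-1 targets (2.82% of 71). In the same order, these overlaps took 64.0%, 67.6%, 34.7% and 2.05% of the 1656 autosomal CSR-1A targets. The CSR-1A count was unsteady, at 34 and 30 without input replicate 2 and 3 and at 46 without IP replicate 2. The X median lay 1.01, 0.115 and 0.82 below the autosomal median in CSR-1A IPs 1, 2 and 3. With size factors from DESeq2, 23.8% of the called X genes were higher in the CSR-1A IP rather than 44.4%. With library size alone, the share higher was 63.4% rather than 9.18% in *alg-3/4* and 56.3% rather than 24.9% in CSR-1A[15xAG], as the median of all genes moved by 0.90 and 1.10. rRNA genes took 41.2% to 61.6% of the CSR-1A[15xAG] input counts and 7.14% to 7.54% of the IP counts, against 7.73% and 18.7% of the CSR-1A input counts. The 3 muscle markers summed to 1133 to 1452 RPM in the CSR-1A[15xAG] inputs, 181 to 190 RPM in their IPs and 270 to 327 RPM in the CSR-1A inputs. The part of these inputs in the CSR-1A[15xAG] fold changes was not tested.

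*ifc-2* was a leading X gene in all 3 CSR-1A strains. It was at 287, 321 and 241 RPM in the CSR-1A IPs, against 22.8 and 17.1 RPM in the inputs (3.29 ± 0.26, edgeR's quasi-likelihood test, adjusted p = 0.00063). In *alg-3/4* animals it was at 707, 388 and 494 RPM in the IPs, against 34.2, 36 and 30.7 RPM (2.62 ± 0.27), and in CSR-1A[15xAG] at 940.2, 1133 and 774 RPM, against 19.6, 16.4 and 16.4 RPM (4.49 ± 0.19). The groups did not overlap in any strain. *hpo-34* was at 308, 360.4 and 285 RPM in the CSR-1A IPs, against 36.7 and 31.3 RPM (2.68 ± 0.23), and *abhd-3.2*, an alpha/beta hydrolase gene, at 32.3, 31.5 and 28.8 RPM, against 3.47 and 3.05 RPM (2.70 ± 0.25).

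In CSR-1A[15xAG] the genes beside *ifc-2* were *gem-1*, a transporter-related gene, at 47.6, 63.3 and 42.4 RPM, against 0.928, 0.705 and 1.19 RPM (4.49 ± 0.26), and *tsp-21*, a tetraspanin gene, at 32.3, 39 and 33 RPM, against 1.03, 0.352 and 0.597 RPM (4.46 ± 0.26). In *alg-3/4* animals *T04G9.6* had the largest fold change, at 13.3, 4.78 and 15.6 RPM, against 0, 0.105 and 0.553 RPM. *Y26E6A.3* followed, at 84.8, 132 and 177 RPM, against 5.22, 7.74 and 7.31 RPM (2.91 ± 0.26).

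*sdc-2*, which recruits the dosage compensation complex to X, was a target of CSR-1A and of CSR-1A[15xAG]. It was at 34.3, 34.2 and 30.3 RPM in the CSR-1A IPs, against 12.1 and 8.19 RPM (1.17 ± 0.24), and at 118, 126 and 112 RPM in the CSR-1A[15xAG] IPs, against 8.97, 8.68 and 7.42 RPM (2.56 ± 0.14). *alg-1*, the gene of a microRNA Argonaute, was likewise at 19, 26 and 23.1 RPM in the CSR-1A IPs, against 6.85 and 6.66 RPM (1.2 ± 0.25), and at 57.5, 55.1 and 48.5 RPM in CSR-1A[15xAG], against 10.4, 10.3 and 8.11 RPM (1.21 ± 0.13). Of the X members of the oocyte, germ granule and embryo list none was a CSR-1A or CSR-1A[15xAG] target, and 1 of 6 tested, *meg-2*, was a target in *alg-3/4* animals, at 9.92, 15.3 and 19.3 RPM in the IPs, against 1.28, 1.88 and 3.32 RPM (1.41 ± 0.36). No gene with a sperm name (*msp*-, *spe*- and the like) lay on X, against 98 on the autosomes, of which 58 were CSR-1A targets. The X genes that were CSR-1A targets were highly expressed, which was not particular to CSR-1A among the L4 IPs of CSR-1. The 57 protein-coding ones had a median of 50.1 FPKM in wild-type L4 mRNA, against 11.9 FPKM for 1571 autosomal CSR-1A targets, and medians of 3.05 and 3.49 FPKM for all protein-coding genes of X and of the autosomes. The 16 protein-coding CSR-1A+B L4 targets on X had a median of 65.4 FPKM, the 4 CSR-1B L4 targets 23.7 FPKM and the 33 *alg-3/4* targets 15.6 FPKM. The 129 protein-coding CSR-1A[15xAG] targets on X had a median of 17.9 FPKM and the 98 adult CSR-1B targets 5.78 FPKM.

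Outside the named families the WAGO-1 IPs held the largest share of X counts among the IPs. This was not so with the families counted as X. Of 1721 X genes tested, 974 were higher in the IP (56.6%, against 31.7% of autosomal and 34.7% of all genes) and 378 were lower (all genes, 35.8%). There were 423 X targets, 24.6% of those tested, against 16% of autosomal and 16.9% of all genes, so 18.5% of WAGO-1 targets were X genes. The median log2 fold change was 1.27 on X and -0.28 on the autosomes, with V the next chromosome at 0.42, and the X median lay 1.31 and 1.34 above the autosomal one in the 2 IPs. With library size alone 59.9% of the called X genes were higher rather than 72.0%. The gap was widest among protein-coding genes, of which 775 of 1122 on X were higher, with a median of 1.56, against -0.30 on the autosomes. Pseudogenes were high on X and autosomes alike (medians 1.43 and 1.33), and tRNA genes were low on both (-1.6 and -1.65). Without genes that have repeated stretches 353 of 1142 X genes were targets (30.9%, against 15.6%).

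*dot-1.2* was at 94.9 and 97.7 RPM in the WAGO-1 IPs, against 12.8 and 10.9 RPM in the inputs (3.20 ± 0.12, edgeR's quasi-likelihood test, adjusted p = 2.4e-11). *ceh-63* was at 11.5 and 9.88 RPM, against 1.66 and 0.916 RPM (3.22 ± 0.26), and *F39F10.2* at 69.0 and 76.7 RPM, against 9.10 and 9.08 RPM (3.17 ± 0.13). IP and input libraries did not overlap in these 3 genes, and *ceh-63* was at 0 and 0.430 RPM in the CSR-1B L4 IPs.

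X genes of the germline and sex lists were high in the WAGO-1 IP too. Over all tested X genes 56.6% were higher and 24.6% were targets. Of the oocyte, germ granule and embryo list, 6 of 7 tested X members were higher and 4 were targets, whereas 7 of 71 autosomal members were higher and 48 were lower. *meg-4* was at 467 and 501 RPM in the IPs, against 158 and 152 RPM in the inputs (1.81 ± 0.08), *puf-9* at 419.6 and 408 RPM, against 169 and 153 RPM (1.53 ± 0.07), and *rme-6*, a Rab5 exchange factor gene of endocytosis, at 399.8 and 397 RPM, against 149 and 154 RPM (1.56 ± 0.08). *meg-3* was at 62.5 and 62.5 RPM, against 17.8 and 18.3 RPM (1.96 ± 0.11). Of the sex determination list, 4 of 5 tested X members were targets, against 4 of 13 autosomal ones. *xol-1* was at 65.6 and 65.5 RPM, against 16.2 and 13.9 RPM (2.30 ± 0.11), *sdc-1* at 238 and 224 RPM, against 66.9 and 62.3 RPM (2.01 ± 0.09), and *ceh-39* at 141 and 144 RPM, against 37 and 37.7 RPM (2.1 ± 0.11). *sdc-2* was the member that was not higher, at 2.88 and 3.45 RPM, against 5.84 and 6.87 RPM (-0.80 ± 0.24). It was also the member that was a CSR-1A target.

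Genes of tissues outside the germline were measured in smaller part. Of 102 X genes with neuron or muscle names 38 were tested, and 25 were higher and 5 lower in the WAGO-1 IP, against 65 and 25 of 130 autosomal members. All 14 tested X members of the nuclear receptor and homeobox list were higher (58 of 79 on the autosomes). Among X genes of the small RNA pathway 4 of 6 were higher and 1, *rsd-3*, an epsin-like gene of systemic RNAi, was a target, at 18.2 and 19.8 RPM, against 5.98 and 4.58 RPM (2.04 ± 0.15). In the CSR-1B L4 IP all 6 were lower, as were 93.9% of all tested X genes, and 41 of 62 autosomal members were higher. In that list *nrde-3*, a nuclear Argonaute gene, and *sid-3*, a kinase gene of RNA import, were the CSR-1B targets in adults (12.8 and 17.4 RPM, against 4.88 and 6.13 RPM, and 15.0 and 15.0 RPM, against 3.47 and 4.28 RPM). Of the X genes for cell division and meiosis 4 were tested, of which 1 was higher and 1 lower in the WAGO-1 IP (median 0.27), against 19 and 120 of 184 autosomal members, and of 4 tested X *lin* genes 2 were higher and none lower, against 12 and 9 of 36. In the CSR-1B L4 IP all 4 tested genes of each of these lists were lower, near the share of X genes as a whole.

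The direct contrast of WAGO-1 with CSR-1B enrichment at L4 covered 1921 X genes, of which 1446 were higher with WAGO-1 and 43 higher with CSR-1B (75.3% and 2.24%), against 39.96% and 40.2% of autosomal genes and 44.6% and 35% of all genes. The median difference was 3.41 on X and 0.07 on the autosomes. Tagged strain, protein and counting version (1.5.1 for CSR-1B, 1.6.5 for WAGO-1) cannot be told apart in this contrast. The L4 inputs differed too, with the oocyte and germline markers at 157 to 172 RPM for CSR-1B and 659 to 749 RPM for WAGO-1. The part of the inputs in the gap was not tested. The 43 became 69 without replicate 1 of the CSR-1B L4 IP and 10 of 1293 without genes that have repeated stretches, with 1088 higher. The largest gaps among the genes above were those of *ceh-63* (6.22 ± 0.64), *xol-1* (5.11 ± 0.38) and *meg-3* (4.89 ± 0.41). Of the 423 WAGO-1 targets on X none was among the 10 CSR-1B targets at L4. On the autosomes that overlap was small as well, at 68 genes (3.71% of 1833 and 1.92% of 3550). In adults 33 of the 423 were CSR-1B targets (7.80% of 423 and 27.5% of 120). The autosomal genes that were both WAGO-1 targets and adult CSR-1B targets made up 7.75% of 1833 and 3.51% of 4048.

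The control IPs, which hold no tagged protein, gave the background. With HA antibody 57 of 1482 X genes were higher in the IP and 2 lower (all genes, 1.53% and 0.419%), with a median of 0.35 on X and -0.13 on the autosomes. The 57 became 174, 150 and 25 without input replicate 1, input replicate 3 and IP replicate 2, and 173 with the replicate number as a block. With FLAG antibody 199 of 1401 X genes were higher and 28 lower (all genes, 5.73% and 1.09%), with medians of 0.12 and -0.02. Of the 199, 73 were tRNA genes and 53 non-coding RNA genes, and the 199 became 132 without input replicate 3. The X medians in the controls lay on the same side as in the WAGO-1 IP and opposite to the CSR-1 IPs, at a smaller size.

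The inputs were compared to ask how the whole pool of X small RNAs changed with age. The median X gene was at 2.76 to 3.11 RPM in the 4 adult inputs, against 1.78 to 2.27 RPM in the 4 L4 inputs, and the median autosomal gene at 7.05 to 7.36 RPM, against 3.37 to 3.82 RPM. Of 2051 tested X genes 394 were higher and 772 lower in adults (19.2% and 37.6%), against 27.5% and 28.1% of autosomal genes and 26% and 29.6% of all genes, with medians of -0.66 and -0.02. With library size alone the median of all genes moved by 0.52, and 54.5% of the called X genes were higher rather than 33.8%. The marker sums given above for CSR-1B moved likewise in the CSR-1A+B inputs, at 728 to 734 RPM in adults, against 166 to 170.3 RPM at L4, for oocyte and germline markers. The L4 inputs of the other strains were higher for these markers, from 178 to 221 RPM in CSR-1A[15xAG] up to 659 to 749 RPM in WAGO-1. Age and library therefore cannot be told apart.

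*T22B2.5* was the X gene with the largest rise, at 182, 166, 172 and 152 RPM in adult inputs, against 5.65, 5.34, 3.74 and 3.65 RPM at L4 (4.29 ± 0.13). *tsp-21* was at 34.3, 31.3, 38.9 and 35.2 RPM, against 0.993, 1.25, 0.723 and 1.42 RPM (4.12 ± 0.14), and *F15G9.1* rose by 4.26 ± 0.20. Among the genes that fell were the F-box genes *fbxa-52*, at 89.1, 91.8, 69.5 and 73.8 RPM in adults, against 262, 253, 240.4 and 279 RPM at L4 (-2.56 ± 0.08), and *fbxa-41* (WBGene00021987), at 64.7, 56.2, 39.5 and 41.4 RPM, against 162, 186, 191 and 206 RPM (-2.78 ± 0.13). *fbxa-41* shares 64.1% of its stretches with another X gene of the same name. *xol-1* had more small RNAs in adults, at 56.3, 54.5, 62.6 and 50.2 RPM, against 14, 13.3, 14.2 and 12.4 RPM (1.17 ± 0.10).

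X gene mRNA changed in both directions in the *csr-1a* mutants, with medians near 0. In *csr-1a(cmp135)* 460 of 1921 tested X genes were higher and 427 lower than in wild-type animals at an adjusted p of at most 0.05 (23.9% and 22.2%), against 20.0% and 17.1% of autosomal genes and 21% and 17.7% of all genes. In *csr-1a(cmp143)* 291 of 1889 were higher and 211 lower (15.4% and 11.2%), against 11.5% and 8.37% of autosomal and 12.5% and 8.77% of all genes. The medians were -0.08 and -0.02 on X and -0.01 and -0.02 on the autosomes. Both comparisons share the wild-type libraries. X genes held 10.8%, 10.9% and 11.6% of mRNA counts in *cmp135* and 11.3%, 11.2% and 11.9% in *cmp143*, against 11.7%, 11.6% and 11.6% in wild-type animals, and replicate 3 of each mutant lay above the other 2. The 211 lower genes in *cmp143* became 116, 109 and 129 without wild-type replicate 1, wild-type replicate 2 and *cmp143* replicate 1. Scaled by library size alone, the higher genes were 38.5% of the called X genes rather than 51.9% in *cmp135*, and 42.7% rather than 58.0% in *cmp143*.

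The mutants also differed from the wild-type animals in tissue markers. The sum of 4 intestine markers (*ges-1*, *vit-2*, *vit-5* and *elt-2*) was 395 to 519 FPKM in *cmp135* and 279.8 to 553 FPKM in *cmp143*, against 76.3 to 79.3 FPKM in wild-type animals. Such a sum can follow a single member, and single markers are not given. The sum of 9 sperm markers was 245 to 323 FPKM and 117 to 265 FPKM, against 329 to 396 FPKM. The 3 epidermis markers (*dpy-7*, *col-19* and *lin-26*) summed to 523 to 651 FPKM in *cmp135* and 210.2 to 489 FPKM in *cmp143*, against 218 to 279 FPKM. The 9 oocyte and germline markers summed to 87.4 to 147 FPKM in *cmp135* and 59.4 to 136 FPKM in *cmp143*, against 77.0 to 83.1 FPKM. The 3 muscle markers summed to 673 to 860.4 FPKM and 760.2 to 977 FPKM, against 801 to 996 FPKM, and the 3 neuron markers to 209.9 to 240.5 FPKM and 160.2 to 221 FPKM, against 237 to 248 FPKM. No marker was at 0 in any group, and the part of these differences in the X values was not tested.

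*C08A9.10*, *Y62H9A.5* and *ZK813.3* were at 0 in all 3 wild-type libraries and at 5.61, 3.71 and 5.79 FPKM, 1.94, 2.75 and 4.80 FPKM, and 1.88, 1.34 and 2.88 FPKM in *cmp135*. Against a floor of 3 counts per library they were at least 18.4-fold, 12.4-fold and 7.85-fold higher. *lpr-3*, a lipocalin-related gene of the apical extracellular matrix, fell in both mutants, at 18.9, 28.3 and 22.7 FPKM in *cmp135* and 31.8, 32.8 and 69.0 FPKM in *cmp143*, against 239, 183 and 145 FPKM in wild-type animals (log2 -2.89 ± 0.19 and -1.95 ± 0.30, edgeR's quasi-likelihood test, adjusted p = 1.63e-06 and 0.00345). *sym-1*, another matrix gene, was at 17.6, 28.8 and 21.7 FPKM in *cmp135*, against 221, 169 and 131 FPKM (-2.81 ± 0.21). The reads of *lpr-3* and *sym-1* were counted without strand, and 5.3% and 9.6% of their exonic bases lie opposite another gene. *hsd-3* was at 0.153, 0.0922 and 0.178 FPKM, against 1.35, 1.44 and 0.607 FPKM (-2.83 ± 0.49).

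In *cmp143* *F54F7.3* was at 10.6, 11.5 and 2.92 FPKM, against 0.227, 0.0681 and 0.280 FPKM (5.53 ± 0.71), *idpp-11* at 4.51, 4.08 and 0.565 FPKM, against 0.0450, 0 and 0.0418 FPKM, and *abu-10*, a gene of the unfolded protein response family, at 6.11, 3.13 and 0.479 FPKM, against 0.207, 0.112 and 0 FPKM (5.04 ± 1.06). In all 3 genes replicate 3 was the lowest mutant library. *nspc-18* was at 9.71, 6.22 and 2.17 FPKM, against 29.8, 25.3 and 24 FPKM (-1.99 ± 0.42). It shares 64.8% of its stretches with other places on X, 56.5% with *nspc-17*, so the reads may not be its own alone. *R07B1.7* was at 0.836, 1.31 and 3.78 FPKM, against 8.58, 8.29 and 8.86 FPKM (-1.95 ± 0.45), a call that was lost without wild-type replicate 2 or 3.

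The mRNAs of X genes that were CSR-1A targets also changed in both directions. Of the 57 protein-coding CSR-1A targets on X 55 were tested, and 19 were higher and 11 lower in *cmp135* and 17 and 3 in *cmp143*. Of 123 tested CSR-1A[15xAG] targets 48 were higher and 22 lower in *cmp135* and 38 and 9 in *cmp143*. Over all X protein-coding genes 452 were higher and 423 lower of 1867 tested in *cmp135*, and 288 and 209 of 1838 in *cmp143*. Among autosomal CSR-1A targets 205 were higher and 249 lower of 1529 in *cmp135*, and 120 and 125 of 1528 in *cmp143*. *alg-1* fell in *cmp135*, at 11.2, 9.98 and 16.1 FPKM, against 25.7, 22.9 and 19.3 FPKM (-0.74 ± 0.16, edgeR's quasi-likelihood test, adjusted p = 0.0047), and was at 14.6, 16.8 and 18.9 FPKM in *cmp143* (-0.29 ± 0.13, adjusted p = 0.14). *sdc-2* was at 0.918, 1.02 and 1.65 FPKM in *cmp135* and 1.36, 1.10 and 1.6 FPKM in *cmp143*, against 1.98, 1.83 and 1.55 FPKM, and neither difference passed the test.

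The share of X genes that were targets varied along the chromosome, which is given with no test. With X divided into 6 segments of equal length, WAGO-1 targets were 28.8%, 26.7%, 20.1%, 14.9%, 25% and 29.5% of tested X genes, lowest in the middle and highest at the ends. CSR-1A[15xAG] targets were 11.6%, 7.85%, 9.78%, 12.3%, 8.66% and 5.19%, and adult CSR-1B targets 9.20%, 7.38%, 3.28%, 5.49%, 6.25% and 6.02%. Of the 26 CSR-1A+B targets at L4 16 lay in the first segment, as did 6 of the 10 CSR-1B targets.

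**Figure D5:**
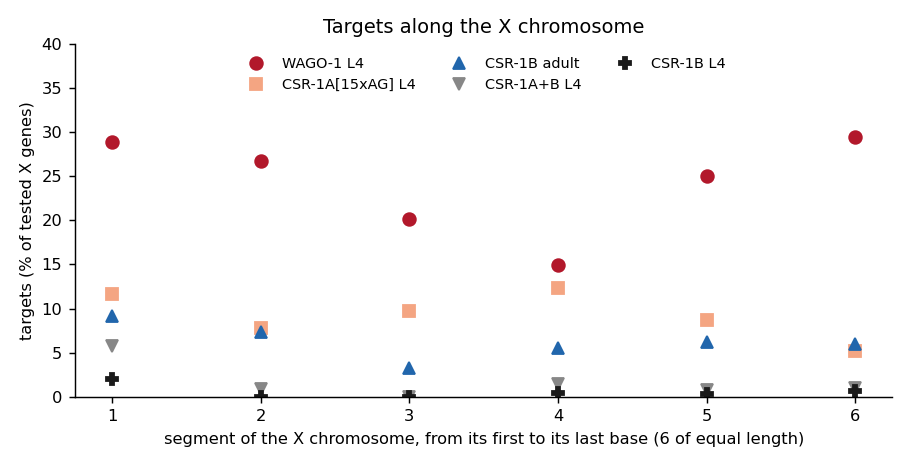
Targets as a percentage of the tested X genes (y axis) in 6 segments of equal length along the X chromosome (x axis), for 5 IPs. WAGO-1 targets are 14.9% in the fourth segment and 28.8% and 29.5% in the end segments, and the CSR-1A+B and CSR-1B L4 targets are most frequent in the first segment (5.76% and 2.03%).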

How the data were processed

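Small RNAs of 18 to 30 nt and mRNA were sequenced from pooled whole animals, and 59 of 60 libraries were used (50 of small RNA, 9 of mRNA). The count table of HA control input replicate 2 ended part way through the genes and was left out. The authors trimmed small RNA reads with FASTX-Toolkit, aligned them with Bowtie2 2.2.2 to WormBase WS258, and counted them per gene with featureCounts of Subread 1.5.1, with fractions for reads over several genes and without strand. The deposited small RNA values are therefore expected counts, and they were rounded to whole numbers for the tests. For mRNA the authors used Trimmomatic 0.36, HISAT2 2.1.0 and featureCounts (recorded as version 2.0.0), and the deposited values are counts.

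RPM was computed with the mapped reads per library that the study gives, and FPKM with exonic lengths and counts on genes. IP and input, stages, and mutants and wild-type animals were compared with edgeR 4.0.16 (glmQLFit and glmQLFTest, TMM scaling, filterByExpr) in R 4.3.3 over all genes that passed the filter, with Benjamini-Hochberg adjustment over all of them. Each comparison was fitted on its own libraries, and ± gives the SE of the log2 fold change. Changes between IPs, inputs or stages needed a 2-fold difference and an adjusted p of at most 0.05, and mRNA changes an adjusted p of at most 0.05. rRNA and miRNA genes were left out of X shares, and X microRNA genes were not analysed here. The fits were tested on simulated counts. Alternatives were DESeq2 1.42.0, other scalings, no filter, other minimums, protein-coding genes only, a replicate block, each library left out in turn and, chosen after seeing the data, omission of tRNA genes or of genes with over 10% of their exonic stretches of 22 bases elsewhere. Sequences and repeats were read from the RefSeq WBcel235 genome with Python 3.11.15, and 5618 X genes matched its annotation, 63.0% with identical bounds.

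The X members and all gene lists were chosen with earlier results of these data known. Named genes were X members of 8 lists, the 3 coding X targets with the largest log2 enrichment in each IP and, for inputs and alleles, the 3 coding X genes with the largest rise and fall at 10 RPM or 1 FPKM and without overlap between groups. The 10 CSR-1B L4 targets and their copies were singled out after their values were seen. Inputs came from the same lysates as the IPs of the same number, as far as the methods tell, and the deviations of same-numbered IP and input libraries correlated at 0.13 to 0.34 in *alg-3/4*, 0.29 and 0.47 in the HA control and 0.14 to 0.33 in the FLAG control, and at -0.08 to 0.10 in the other IPs.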

Additional observations from a re-analysis of the deposited data

Results flagged for a closer look

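The CSR-1B enrichment of 587 X genes was higher in adults than at L4 and that of 29 was lower by the test of the interaction of IP with stage, and both counts were given with their autosomal shares above. Among single genes *phf-34* had a log2 difference of 3.73 between the stages by the same test. *M02D8.7* was at 13.1 RPM in replicate 2 of the CSR-1A+B L4 input, apart from the other 3 L4 inputs at 10.6 to 10.9 RPM. These L4 inputs pool the CSR-1B and CSR-1A+B strains. Of 14 groups of 4 libraries or more examined for a library that stood apart this was the only one. Chance alone gives about 1 in 20 for each group, so with 14 groups examined it is not read as a result.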

How the results depend on the processing

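The X median stayed below the autosomal median in the 7 CSR-1 IPs and above it with WAGO-1 under every alternative run, but the size of the gap and the counts of X targets varied with the settings. With DESeq2 in place of edgeR, the X median minus the autosomal median was -0.69 in *alg-3/4*, -0.80 in CSR-1A[15xAG], -1.1998 for CSR-1B and -1.14 for both isoforms at L4, -0.60 and -0.41 for them in adults, 0.95 for WAGO-1, 0.31 for the HA control, -0.49 for inputs, 0.49 for the CSR-1B stage difference, 1.597 for WAGO-1 against CSR-1B and -0.0113 (reversed) for *cmp143*, with 130 X genes higher in the HA control, 383 higher by stage and 20 lower for WAGO-1 against CSR-1B. Without a filter on low counts, the differences were -0.68, -0.71, -1.39, -1.12, -0.57, -0.36, 0.94, 0.32, -0.46, 1.88 for WAGO-1 against CSR-1B and -0.0112 (reversed) for *cmp143*, in the same order and with the stage difference left out, and there were 24 CSR-1B L4 targets, 162 X genes higher in the HA control, 108 lower by stage and 129 lower for WAGO-1 against CSR-1B.

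With protein-coding genes only, the difference was -1.12 in CSR-1A[15xAG], -3.02 for CSR-1B and -1.77 for both isoforms at L4, -1.12 for CSR-1B in adults, 1.87 for WAGO-1, 0.36 for the HA control, -0.71 for inputs, 1.4995 by stage and 4.46 for WAGO-1 against CSR-1B. The counts were 4 CSR-1B and 16 CSR-1A+B L4 targets, 20 and 70 X genes higher in the HA and FLAG controls, 476 lower in adult inputs, 3 lower by stage and 18 lower for WAGO-1 against CSR-1B. With genes of repeated sequence left out, chosen after seeing the data, the differences were -3.02 for CSR-1B and -1.78 for both isoforms at L4, -1.23 for CSR-1B in adults, 1.92 for WAGO-1, 0.37 for the HA control, -0.78 for inputs, 1.47 by stage and 4.46 for WAGO-1 against CSR-1B. There were 1 CSR-1B and 11 CSR-1A+B L4 targets, 63 CSR-1A+B adult targets, 22 and 66 X genes higher in the HA and FLAG controls, 487 lower in adult inputs, 3 lower by stage and 10 lower for WAGO-1 against CSR-1B.

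With library size alone there were 138 *alg-3/4*, 232 CSR-1A[15xAG] and 21 CSR-1B L4 targets, 425 X genes lower in adult inputs, a stage difference of 1.12 with 163 lower, and 3.39 with 118 lower for WAGO-1 against CSR-1B. This scaling moved the median of all genes by 0.36 for CSR-1A+B at L4, -0.33 and -0.15 for CSR-1B and both isoforms in adults, -0.57 for WAGO-1, -1.27 for WAGO-1 against CSR-1B, and -0.12 and -0.14 for *cmp135* and *cmp143*. With size factors from DESeq2 the stage difference was 1.11 with 62 lower. A 4-fold cutoff gave 17 CSR-1A, 7 *alg-3/4*, 68 CSR-1A[15xAG], 4 CSR-1B and 11 CSR-1A+B L4 targets, 61 and 38 in adults and 170 for WAGO-1. A minimum of 20 RPM gave 43 CSR-1A, 25 *alg-3/4*, 69 CSR-1B adult and 61 CSR-1A+B adult targets, and 5 RPM gave 17 CSR-1B L4 and 148 CSR-1A+B adult targets. With a 2-fold change required of mRNA, 205 X genes were higher and 158 lower in *cmp135* and 127 and 90 in *cmp143*. The input difference was -0.54 in the CSR-1B strain alone and -0.84 in the CSR-1A+B strain alone.

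With the replicate number as a block, the difference was -2.39 for CSR-1B at L4 and 0.97 by stage, 173 X genes were higher in the HA control and 28 lower rather than 2, and 138 were lower in *cmp143*, and no other count moved by more than 1.5 times. Same-numbered mRNA libraries did not deviate together (correlations -0.22 to 0.02), so there the samples share only a number.

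When each library was left out in turn, the number of targets on X ranged over 30 to 80 for CSR-1A and 9 to 20 for CSR-1B at L4. The difference between the X and autosomal medians ranged over -1.13 to -1.02 in CSR-1A[15xAG], -2.43 to -2.36 for CSR-1B and -1.67 to -1.57 for both isoforms at L4, -0.96 to -0.92 and -0.79 to -0.61 for them in adults, 1.38 to 1.49 for WAGO-1, 0.28 to 0.69 for the HA control, -0.66 to -0.52 for inputs, 0.93 to 1.62 by stage (the highest without CSR-1B L4 IP replicate 2) and 2.99 to 3.65 for WAGO-1 against CSR-1B. For the FLAG control the difference of 0.13 was 0.01 without input replicate 1. X genes higher numbered 25 to 174 in the HA control, 132 to 264 in the FLAG control and 357 to 738 by stage, and those lower 0 to 56 by stage, 32 to 69 for WAGO-1 against CSR-1B and 109 to 267 in *cmp143*, where the difference of 0.0064 ranged over -0.0166 to 0.0320 and reversed without *cmp143* replicate 1 or 3. The cause of these changes was not tested. The analysis of X microRNA genes was not run. The depth of the CSR-1B L4 IP replicate 1 limits X genes of few reads most.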
